A study of Homo sapiens with 12 samples.

Results

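The genes described here encode subunits of chromatin remodellers, apart from the ATPases SMARCA4 and SMARCA2. A list of 50 symbols was drawn from the BAF, PBAF and non-canonical BAF complexes and from the ISWI, CHD and INO80 families, with ATRX and HELLS beside them. Every symbol was found in all 12 tables, where the 50 genes stand among 58288 and are represented by 624 transcript models. All 50 passed the filter on low counts, and they held between 0.614% and 0.657% of the counts of a library.

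Polyadenylated RNA of HEK-293T, a human embryonic kidney line transformed with SV40 large T antigen, was sequenced in 4 groups of 3 libraries. All cells carried a CIRTS effector, an RNA-guided protein assembled from human parts, together with a guide RNA. In the groups nuclease-NT and nuclease-SMARCA4 the effector was CIRTS-12, named a nuclease, with a non-targeting (NT) guide or a guide against SMARCA4. In the groups YTHDF2-NT and YTHDF2-SMARCA4 it was CIRTS-3, named YTHDF2 after the reader protein of m6A that promotes mRNA decay, with the same choice of guides. No group without an effector was analysed here, and a batch that went with an effector cannot be told apart from it. The series calls the 3 libraries of a group biological replicates without saying how cultures were kept apart, so a p-value reflects how much the libraries of a group varied and nothing more.

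Library totals lay between 9207196 and 18047859 estimated counts. Of 8 genes typical of HEK-293T, 7 were above 1 TPM (a length-normalized level scaled to a common total per library) in every library, and their summed level was 613 to 738 TPM. Summed marker levels were 2.13 to 5.004 TPM for blood, 3.18 to 5.87 TPM for fibroblasts, 2.88 to 5.84 TPM for neurons and 0.228 to 1.196 TPM for liver, with no marker at 0 in every library. The targeted gene, SMARCA4, was at 225, 245 and 242 CPM (read counts scaled to library totals) in the nuclease-NT libraries and at 239, 250 and 219.6 CPM in nuclease-SMARCA4, a relative difference of -0.585% (adjusted p = 0.985, edgeR). With YTHDF2 the NT libraries were at 302, 235 and 250 CPM and the SMARCA4 libraries at 243, 210.2 and 221 CPM, 14.4% lower (adjusted p = 0.703, edgeR). The unadjusted p was 0.930 with the nuclease and 0.0337 with YTHDF2 (edgeR). With YTHDF2, 6.82% of all genes had an unadjusted p below 0.05. The SMARCA4 libraries overlapped the NT libraries with both effectors, and a lower level of the target was not detected at an adjusted p below 0.05. The YTHDF2-NT libraries stood apart in their spread: the median SD of log2 CPM over the members was 0.199 there and 0.060, 0.078 and 0.063 in the other groups, against 0.229 and 0.107 to 0.120 over all fitted genes. Between YTHDF2-NT replicates 1 and 2 the log2 ratio fell with transcript length, with Spearman's rho of -0.59 across the 50 members and -0.54 across the 16297 fitted genes, which are not independent of each other.

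Remodellers use ATP to slide, eject or exchange nucleosomes. Canonical BAF and PBAF share a core: SMARCB1, SMARCC1 or SMARCC2, a SMARCD protein, SMARCE1, an actin-like protein and actin. The kinds of BAF complex differ in alternative subunits. Canonical BAF holds ARID1A or ARID1B with a DPF protein, and PBAF holds ARID2 with PBRM1, PHF10 and BRD7. Non-canonical BAF holds BICRA or BICRAL with BRD9. Many subunits come as paralogs that take the same place in a complex, and the exchange of ACTL6A for ACTL6B, SS18 for SS18L1 and PHF10 for DPF1 or DPF3 is known from the passage of neural progenitors to neurons.

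Several members are annotated with alternative coding segments that would give different proteins from 1 gene, and 10 such segments of 30 to 130 bases were found between protein-coding models that each held at least 10% of a gene's counts. Below are 5 of them, chosen after their values were seen as examples from genes of different roles in which both forms held TPM in every library. Sequences are from GENCODE release 29 on GRCh38, 5′ to 3′ on the gene's strand; capitals mark the alternative segment and lower case the coding bases beside it. SMARCA1, the ISWI ATPase SNF2L, has a whole coding exon of 36 bases at chrX:129493040-129493075 on the minus strand, exon 13 of SMARCA1-202. In SMARCC2, a scaffold of BAF, the segment is a whole coding exon of 93 bases, the exon numbered 18 in its model, at chr12:56172937-56173029 on the minus strand. In SMARCD1 it is exon 11 of SMARCD1-202, with 123 bases at chr12:50096850-50096972 on the plus strand. In BCL7A, a small BAF subunit, it is a part of coding exon 5 of BCL7A-203, with 63 bases at chr12:122054927-122054989 on the plus strand. In DPF2, the PHD finger protein of canonical BAF, it is exon 7 of DPF2-201, with 42 bases at chr11:65344580-65344621 on the plus strand.
SMARCA1: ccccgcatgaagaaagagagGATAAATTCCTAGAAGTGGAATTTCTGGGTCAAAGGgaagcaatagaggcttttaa
SMARCC2: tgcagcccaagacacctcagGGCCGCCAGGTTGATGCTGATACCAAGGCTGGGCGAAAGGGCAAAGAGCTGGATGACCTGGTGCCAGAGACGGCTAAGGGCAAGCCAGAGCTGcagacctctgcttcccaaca
SMARCD1: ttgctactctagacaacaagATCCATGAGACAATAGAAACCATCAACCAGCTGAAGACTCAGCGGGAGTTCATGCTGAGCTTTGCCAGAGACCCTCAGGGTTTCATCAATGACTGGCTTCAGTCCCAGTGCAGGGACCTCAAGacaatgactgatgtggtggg
BCL7A: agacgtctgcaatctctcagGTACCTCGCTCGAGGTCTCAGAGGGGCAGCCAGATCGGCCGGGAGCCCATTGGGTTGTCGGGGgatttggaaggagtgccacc
DPF2: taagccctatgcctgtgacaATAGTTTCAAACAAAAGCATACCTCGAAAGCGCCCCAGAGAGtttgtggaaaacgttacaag

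All 5 segments keep the reading frame, since their lengths are multiples of 3. The values below are the share of TPM on models with the segment among the models that either hold it or join its flanks directly. Models of any biotype were counted, noncoding ones included. For SMARCA1 the share was 43.9%, 54.0% and 68.5% in nuclease-NT, 57.3%, 60.7% and 63.9% in nuclease-SMARCA4, and, with YTHDF2, 32.9%, 56.5% and 40.1% under the NT guide and 63.6%, 70.9% and 47.0% under the SMARCA4 guide. Both forms of SMARCA1 were thus present in every library, with 1039 to 1974 estimated counts behind each share. Groups that share an effector or a guide overlapped, while all nuclease-SMARCA4 shares lay above those of YTHDF2-NT. The form with exon 13 is known as one that lacks remodelling activity. For SMARCC2 the share was 34.8%, 47.0% and 49.2% in nuclease-SMARCA4 and 65.7%, 60.5% and 52.8% in YTHDF2-SMARCA4, without overlap. The exact two-sided permutation p was 0.1, the smallest that 3 against 3 libraries can give. Over all libraries the share of SMARCC2 ran from 32.7% to 65.7%, with 453 to 1158 estimated counts behind it. SMARCD1 lay between 42.3% and 64.8% with a median of 56.8%, BCL7A between 48.9% and 90.7% with a median of 60.5%, and the 42-base exon of DPF2 between 20.7% and 40.7% with a median of 33.3%. The share of DPF2 is lowered by DPF2-211, a processed transcript of 726 bases without the exon, with a median of 31.9% of DPF2 TPM. The coding models DPF2-201 with the exon and DPF2-205 without it held medians of 26.0% and 16.3%. The highest and the lowest BCL7A share were both in YTHDF2-NT, in replicates 1 and 2. The segments not printed lie in ARID2 (57 bases, 42.6% to 93.9%), CHD3 (102 bases, 46.4% to 82.1%), CHD9 (48 bases, 26.8% to 79.4%), DPF1 (30 bases, 0.0% to 27.4%) and a second exon of DPF2 (113 bases, 43.1% to 78.8%). Of 40 comparisons of a segment between groups, 4 showed no overlap. They were that of SMARCC2 above, the 113-base exon of DPF2, lower in YTHDF2-NT than in nuclease-NT by 19.0 percentage points and higher in YTHDF2-SMARCA4 than in YTHDF2-NT by 14.5, and ARID2, lower in nuclease-SMARCA4 than in nuclease-NT by 19.9. The smallest exact permutation p adjusted over the 40 was 0.857, and since none of these tests can go below 0.1, none could pass 0.05. The shares also depend on how reads were apportioned among models.

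**Figure D1:**
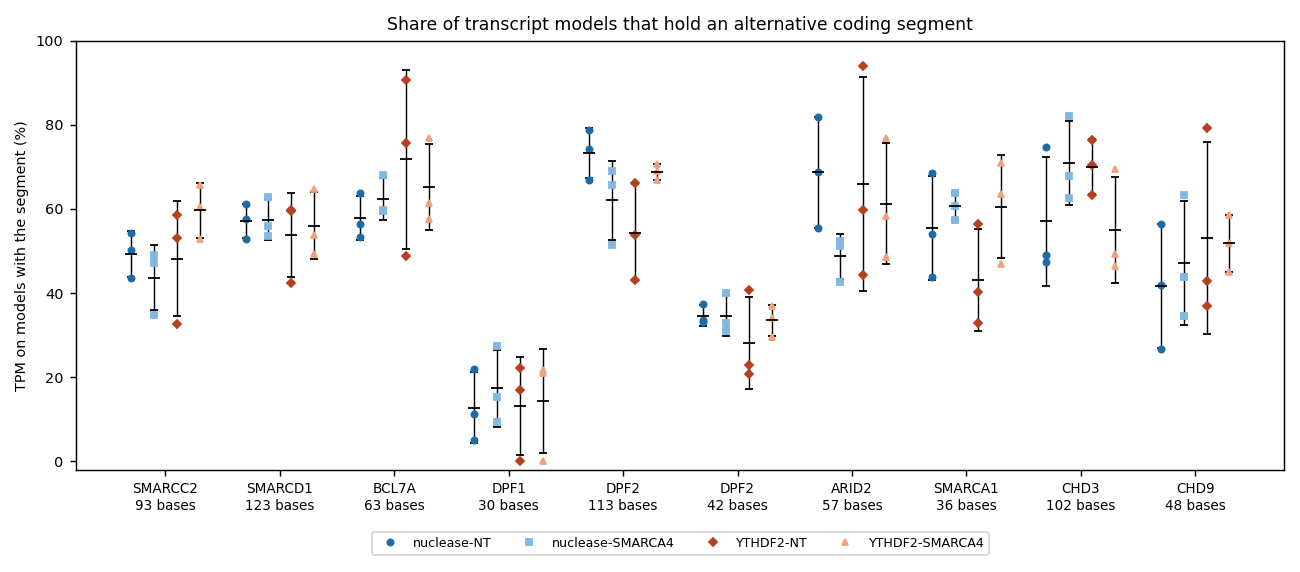
Share of TPM (%, y axis) on transcript models that hold an alternative coding segment, for 10 segments (x axis, with their lengths in bases); points are libraries, and the bar with whiskers is the mean ± SD of 3. SMARCA1 spans 32.9% to 70.9% and the 42-base DPF2 exon 20.7% to 40.7%, and YTHDF2-NT has the widest spread of the 4 groups for BCL7A.

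The median level of the members was 26.0 TPM, above that of the fitted genes, 8.58 TPM. Not every member was that high: INO80 lay above 46.5% of the fitted genes and BCL11B above 4.41%. Averaged over the 12 libraries, 6 members exceeded 100 TPM, 34 lay at 10 to 100 TPM, 9 at 1 to 10 TPM and 1 below 1 TPM. The 6 were ACTB, at 1565 TPM, followed by SMARCB1 at 164.7 TPM, RUVBL2 at 153 TPM, SMARCE1 at 149 TPM, RUVBL1 at 148 TPM and CHD4 at 109.9 TPM. ACTB is cytoplasmic actin as well as a BAF subunit. RUVBL1 and RUVBL2 are AAA+ ATPases of the INO80, SRCAP and EP400 complexes and of other assemblies. The lowest were BCL11B at 0.39 TPM, ACTL6B at 1.02 TPM and BICRAL at 1.13 TPM. Members were also long, with a median length of 3238 bases against 2048 bases over the fitted genes.

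**Figure D2:**
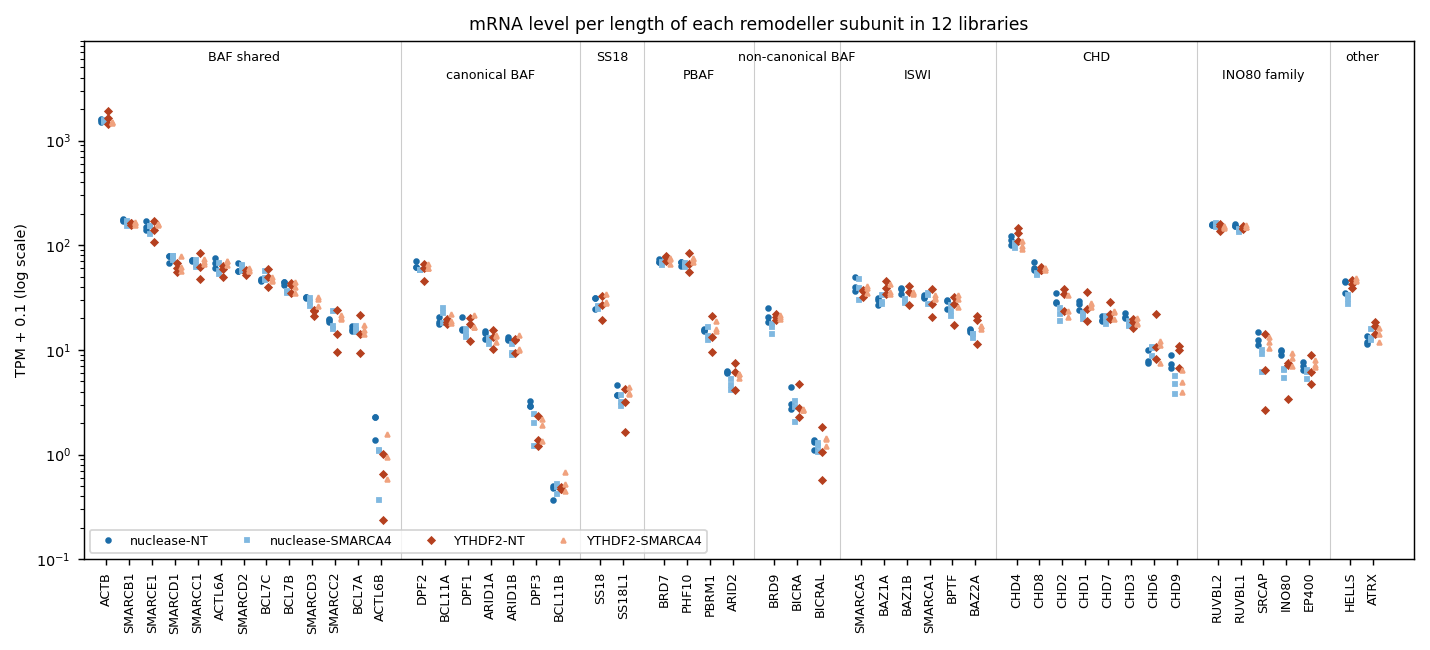
TPM + 0.1 of each member (y axis, log scale) in 12 libraries, with members on the x axis grouped by complex and ordered by mean level; each point is a library, its colour and shape the group. The 4 groups lie close together for most genes, while the span from BCL11B to ACTB is wide.

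In the BAF core, the scaffold SMARCC1 was at 71.3 ± 0.5 TPM in nuclease-NT, 66.4 ± 5.4 in nuclease-SMARCA4, 64.4 ± 18.2 in YTHDF2-NT and 69.6 ± 4.7 in YTHDF2-SMARCA4 (SD, n = 3). Its paralog SMARCC2 was at 19.2 ± 0.8, 18.7 ± 4.1, 15.8 ± 7.4 and 20.5 ± 1.0 TPM in the same order. SMARCC1 was the higher in all 12 libraries, 3.71-fold on the mean log2 ratio of TPM + 0.1, with a range of that log2 ratio from 1.62 to 2.32. Of the SMARCD proteins, SMARCD1 averaged 69.7 TPM, SMARCD2 58.7 TPM and SMARCD3 28.2 TPM. SMARCD3, the paralog known from heart and muscle, was the lowest of the 3 in every library. SMARCD1 exceeded SMARCD2 in 11 of 12 libraries, but in 0 of 12 when only protein-coding models were summed, so their order is not settled by these tables. The actin-like subunit ACTL6A was at 67.8 ± 7.2, 59.2 ± 7.9, 57.4 ± 7.1 and 68.7 ± 3.6 TPM (SD, n = 3). ACTL6B, which replaces it in neurons, rested on 2 to 19 estimated counts a library and was 67.6-fold lower than ACTL6A in TPM. BCL7C averaged 48.3 TPM, BCL7B 39.6 TPM and BCL7A 15.5 TPM. BCL7B exceeded BCL7A in 12 of 12 libraries by TPM of all models, yet in 1 of 12 by protein-coding models and in 0 of 12 by estimated counts. BCL7B-210, a model of biotype processed transcript, held 37.5% to 69.6% of the TPM of BCL7B.

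The subunits that set the kind of BAF complex differed in level. ARID1A and ARID1B together averaged 24.3 TPM, ARID2 5.51 TPM and BICRA and BICRAL together 4.05 TPM. Over protein-coding models only, the same sums were 15.6, 5.06 and 3.30 TPM, in the same order. By TPM of all models ARID1A and ARID1B were nearly even, with ARID1A the higher in 11 of 12 libraries and 1.16-fold on average. ARID1A was the higher in 10 of 12 by protein-coding models and in 12 of 12 by estimated counts. Their means were 65.5 and 40.4 CPM, which are not scaled by length. The 1551-base model ARID1B-211 held a median of 28.0% of ARID1B TPM but 9.79% of its counts. The retained-intron model ARID1B-215 held a median of 28.8% of that TPM, so the near evenness depends on how models are counted. The DPF proteins, the canonical PHD finger subunits, together held 79.1 TPM and the PBAF counterpart PHF10 68.3 TPM. Their ranges over the libraries were 66.8 to 93.7 TPM and 55.9 to 84.3 TPM, and they overlapped. Over protein-coding models the order turned, with 49.3 TPM for the DPF proteins and 67.9 TPM for PHF10, which then held 53.9% to 64.5% of their sum in the libraries. DPF2 was the main DPF gene at 60.5 TPM, with DPF1 at 16.6 TPM and DPF3 at 1.99 TPM. DPF2 exceeded DPF3 30.5-fold and DPF1 3.67-fold, in 12 of 12 libraries each, and 95.6-fold and 3.71-fold over protein-coding models. DPF3 rested on 51 to 101 estimated counts a library. Its coding models averaged 0.48 TPM and held 0.0% of its TPM in the lowest library. The 95.6-fold value, with a log2 ratio from 4.43 to 8.68, therefore depends on the 0.1 TPM added. The bromodomain protein BRD7 of PBAF was at 71.3 TPM and BRD9 of non-canonical BAF at 19.6 TPM, a 3.66-fold difference in favour of BRD7 that was 8.62-fold over protein-coding models. SS18, the subunit fused to SSX genes in synovial sarcoma, exceeded SS18L1 7.93-fold. BCL11A exceeded BCL11B, the paralog of T cells and some neurons, 40.5-fold in TPM. The means of BCL11A and BCL11B were 18.4 and 2.76 CPM, which are not scaled by length. The 567-base model BCL11A-207 held a median of 50.8% of BCL11A TPM but 20.1% of its counts. The size of that fold thus depends on how models are counted. PBRM1, the polybromo protein of PBAF, was at 15.1 TPM.

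Among the other families, the ISWI ATPases SMARCA5 (SNF2H) and SMARCA1 (SNF2L) were at 38.5 TPM and 31.1 TPM. SMARCA5 was the higher in 10 of 12 libraries by TPM and in 4 of 12 by protein-coding models. The ISWI partners BAZ1A of the ACF complex, BAZ1B of WICH and BPTF of NURF were at 33.9, 33.8 and 26.6 TPM, and BAZ2A of the nucleolar NoRC complex at 15.7 TPM. BAZ1A exceeded BAZ1B in 6 of 12 libraries by TPM of all models, in 2 of 12 by protein-coding models and in 0 of 12 by estimated counts. Of the CHD genes, CHD4, the NuRD ATPase, exceeded its paralog CHD3 5.80-fold in 12 of 12 libraries. CHD8 led the CHD6 to CHD9 group at 58.6 TPM, against 21.1 TPM for CHD7, 10.5 TPM for CHD6 and 6.55 TPM for CHD9. CHD6 was above CHD9 in 10 of 12 libraries, but in 5 of 12 by protein-coding models, so the order of these 2 is not settled. The short model CHD8-206, of 679 bases, held 37.0% to 49.2% of the gene's TPM but a median of 11.2% of its counts. Without that model CHD8 averaged 33.6 TPM and was still the higher in 12 of 12 libraries against each of the others, 1.597-fold over CHD7. The short models of the other genes were kept there, such as CHD7-206 of 398 bases, with a median of 33.4% of CHD7 TPM. With protein-coding models on both sides CHD8 exceeded CHD7 4.73-fold. The large ATPases SRCAP, INO80 and EP400 were at 10.1, 7.37 and 6.62 TPM, far below RUVBL1 and RUVBL2, which serve several complexes. RUVBL2 and RUVBL1 were even by TPM of all models, with a mean log2 ratio of 0.04 and RUVBL2 higher in 7 of 12 libraries. RUVBL2 was lower in 12 of 12 libraries over protein-coding models, and models annotated for nonsense-mediated decay held a median of 91.0% of its TPM.

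**Figure D3:**
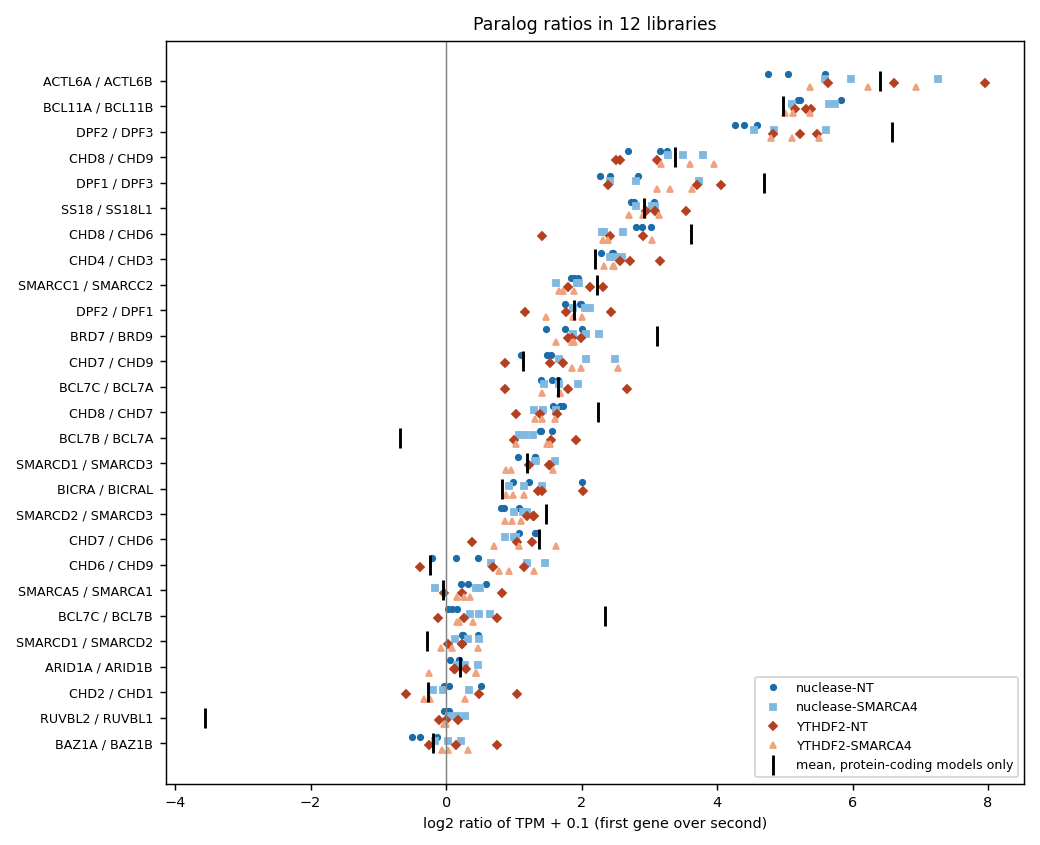
log2 ratio of TPM + 0.1 (x axis) of the first over the second gene for 27 paralog pairs (y axis) in 12 libraries, coloured and shaped by group; the black tick is the mean when only protein-coding models are summed. Pairs such as ACTL6A over ACTL6B keep their order in every library, and the tick for RUVBL2 over RUVBL1 lies far from its points, at -3.56 against 0.04.

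Across the 27 paralog pairs, 19 kept 1 order in all 12 libraries. Of 108 comparisons of a ratio between groups, 19 showed no overlap, and the smallest exact permutation p adjusted over the 108 was 0.568. With the SMARCA4 guide, CHD7 and CHD8 each stood higher over CHD9 with both effectors, without overlap. Both of these ratios are taken over CHD9. The log2 ratio of CHD8 over CHD9 was 3.04 ± 0.31 in nuclease-NT and 3.52 ± 0.26 in nuclease-SMARCA4, and 2.73 ± 0.33 and 3.58 ± 0.40 in the matching YTHDF2 groups (SD, n = 3). CHD9 was at 6.64, 7.17 and 8.91 TPM in nuclease-NT and at 4.57, 5.47 and 3.67 TPM in nuclease-SMARCA4. With YTHDF2 it was at 9.79, 10.8 and 6.57 TPM under the NT guide and at 3.83, 4.83 and 6.38 TPM under the SMARCA4 guide. No TPM value of CHD9 under the SMARCA4 guide reached those under the NT guide of the same effector. Over protein-coding models CHD9 held 7.40 ± 3.82% of the summed CHD6 to CHD9 TPM in nuclease-NT and 5.60 ± 1.94% in nuclease-SMARCA4. With YTHDF2 it held 10.2 ± 2.6% under the NT guide and 5.78 ± 1.91% under the SMARCA4 guide (SD, n = 3). On summed counts the difference was small, with log2 fold changes of -0.18 ± 0.12 for the nuclease and -0.10 ± 0.12 for YTHDF2 (SE) and adjusted p of 0.619 and 0.844 (edgeR). The 703-base model CHD9-215 held from 0.0% to 53.8% of the gene's TPM. Without it CHD9 was at 5.40, 5.78 and 5.79 TPM in nuclease-NT and at 3.42, 3.80 and 3.67 TPM in nuclease-SMARCA4, still apart. With YTHDF2 the values without it were 4.53, 8.001 and 3.63 TPM under the NT guide and 3.38, 4.35 and 4.24 TPM under the SMARCA4 guide, which overlapped.

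A single model was the main one in all 12 libraries for 19 of 50 members by TPM and for 28 by estimated counts. Examples with 1 main model are BAZ1B, whose model BAZ1B-201 held 77.0% to 84.5% of its TPM, and SMARCE1, the HMG-box protein of the BAF core, whose model SMARCE1-214 is annotated for nonsense-mediated decay and held 47.7% to 57.8%. ARID1A had its coding model ARID1A-212 first, with 47.5% to 76.2%, and a decay-annotated model, ARID1A-206, with 15.2% to 40.1%. A decay annotation in the tables says how a model was classed and is no measurement of decay.

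The NT guide is the control for each effector, and the 2 effectors can be compared under either guide. In none of the 7 comparisons was a member called at an adjusted p below 0.05 in the edgeR fit of all 12 libraries. With the nuclease, 0 of 50 members were called for the SMARCA4 guide against the NT guide, where 0.00614% of all fitted genes were called. At an unadjusted p below 0.05 there were 6 members, against 10.9% of all genes. The 4 lowest of these members by p were INO80, CHD2, BAZ1B and HELLS, all lower with the SMARCA4 guide. INO80, the ATPase of the INO80 complex at chr15:40978880-41116354, was at 27.2, 27.9 and 28.4 CPM in the nuclease-NT libraries and at 19.5, 20.7 and 21.4 CPM in nuclease-SMARCA4. With YTHDF2 its level was 19.3, 27.3 and 25.2 CPM under the NT guide and 25.6, 26.2 and 24.9 CPM under the SMARCA4 guide. All nuclease-SMARCA4 libraries lay below all nuclease-NT libraries, while YTHDF2-NT replicate 1 was as low as they were. The log2 fold change with the nuclease was -0.44 ± 0.11 (SE; adjusted p = 0.211, edgeR), a 26.1% lower level with a 95% interval from 37.6% to 12.5% lower. CHD2, a CHD1-like remodeller at chr15:92900189-93028005, was at 62.6, 76.1 and 68.0 CPM in the nuclease-NT libraries and at 56.7, 54.3 and 56.0 CPM in nuclease-SMARCA4. The log2 fold change of CHD2 was -0.31 ± 0.08 (SE; adjusted p = 0.218, edgeR). HELLS, a remodeller needed for DNA methylation, was at 98.3, 112.6 and 99.3 CPM in the nuclease-NT libraries and at 83.8, 85.0 and 89.6 CPM in nuclease-SMARCA4. Its log2 fold change was -0.27 ± 0.09 (SE; adjusted p = 0.307, edgeR). BAZ1B, at chr7:73440398-73522278, was at 177, 202 and 194 CPM and at 159.8, 163 and 168 CPM in these groups, with adjusted p = 0.267 (edgeR). When only the 6 nuclease libraries were fitted, these 4 genes were called, with adjusted p of 0.0227 for INO80, 0.0373 for CHD2, 0.0365 for HELLS and 0.0422 for BAZ1B (edgeR). That fit called 3.57% of all genes tested, and 4 of 50 members. Without YTHDF2-NT replicate 1, INO80 alone was called, with adjusted p = 0.0416 (edgeR), and 0.263% of all genes.

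Over all members, 18 lay above and 32 below a log2 fold change of 0 in the nuclease comparison, against 49.9% and 50.1% of all fitted genes, with a median of -0.07 against 0.00 over all. All 8 CHD genes were below 0, from CHD2 at -0.31 to CHD6 at -0.01, with a median of -0.14. Of the BAF core, 10 of 13 members lay above 0, with a median of 0.03. In CPM, 19 of 50 members had nuclease-SMARCA4 and nuclease-NT libraries that did not overlap, as did 25.1% of all fitted genes. Of the 19 members, 14 were lower and 5 higher with the SMARCA4 guide. For 13 of 50 members the 95% interval excluded a change of 1.2-fold or more in either direction.

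With YTHDF2, 0 of 50 members were called for the SMARCA4 guide, and 0.0% of all genes. There were 3 members with an unadjusted p below 0.05, against 6.82% of all genes: CHD4, CHD7 and ATRX, all lower. CHD4, at chr12:6570082-6614524, was at 400.0, 373 and 349 CPM in the YTHDF2-NT libraries and at 325, 293 and 301 CPM in YTHDF2-SMARCA4. In the nuclease groups it was at 332, 341 and 329 CPM under the NT guide and at 343, 323 and 321 CPM under the SMARCA4 guide. The 3 YTHDF2-NT values were thus above all 9 others. The log2 fold change with YTHDF2 was -0.29 ± 0.07 (SE; adjusted p = 0.703, edgeR). CHD7, mutated in CHARGE syndrome, was at 85.7, 75.8 and 83.6 CPM in the YTHDF2-NT libraries and at 73.8, 66.3 and 71.6 CPM in YTHDF2-SMARCA4. Its log2 fold change was -0.21 ± 0.08 (SE; adjusted p = 0.703, edgeR). Medians, counts of signs and overlaps were near those of all genes: 25 members lay above and 25 below 0 (48.2% and 51.8% of all genes), the median was 0.00, and 4 of 50 members did not overlap, against 9.27% of all genes. For 17 members the 95% interval excluded a change of 1.2-fold or more. Without YTHDF2-NT replicate 2, 8 of 50 members were called, against 9.46% of all genes: CHD4, ACTB, SMARCB1, BCL7C and RUVBL2, which were lower, and SRCAP, SMARCC2 and BAZ2A, which were higher with the SMARCA4 guide. Across 11912 genes the deviation of this library from the rest followed transcript length with a Spearman's rho of 0.60, and that of replicate 1 with -0.62; the part of length in these calls was not tested.

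SRCAP, the ATPase that deposits H2A.Z, shows how far the YTHDF2-NT libraries differed. Its CPM was 89.4, 88.6 and 103.0 in nuclease-NT, 83.7, 54.4 and 66.9 in nuclease-SMARCA4, 25.5, 103.2 and 56.7 in the YTHDF2-NT libraries and 102.4, 75.9 and 92.0 in the YTHDF2-SMARCA4 ones. YTHDF2-NT held both the lowest and the highest value of the 12. The log2 fold change for the guide was 0.54 ± 0.33 with YTHDF2 and -0.45 ± 0.33 with the nuclease (SE), with adjusted p of 0.721 and 0.650 (edgeR). Without YTHDF2-NT replicate 2 the value with YTHDF2 was 1.13 (adjusted p = 0.0249, edgeR).

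**Figure D4:**
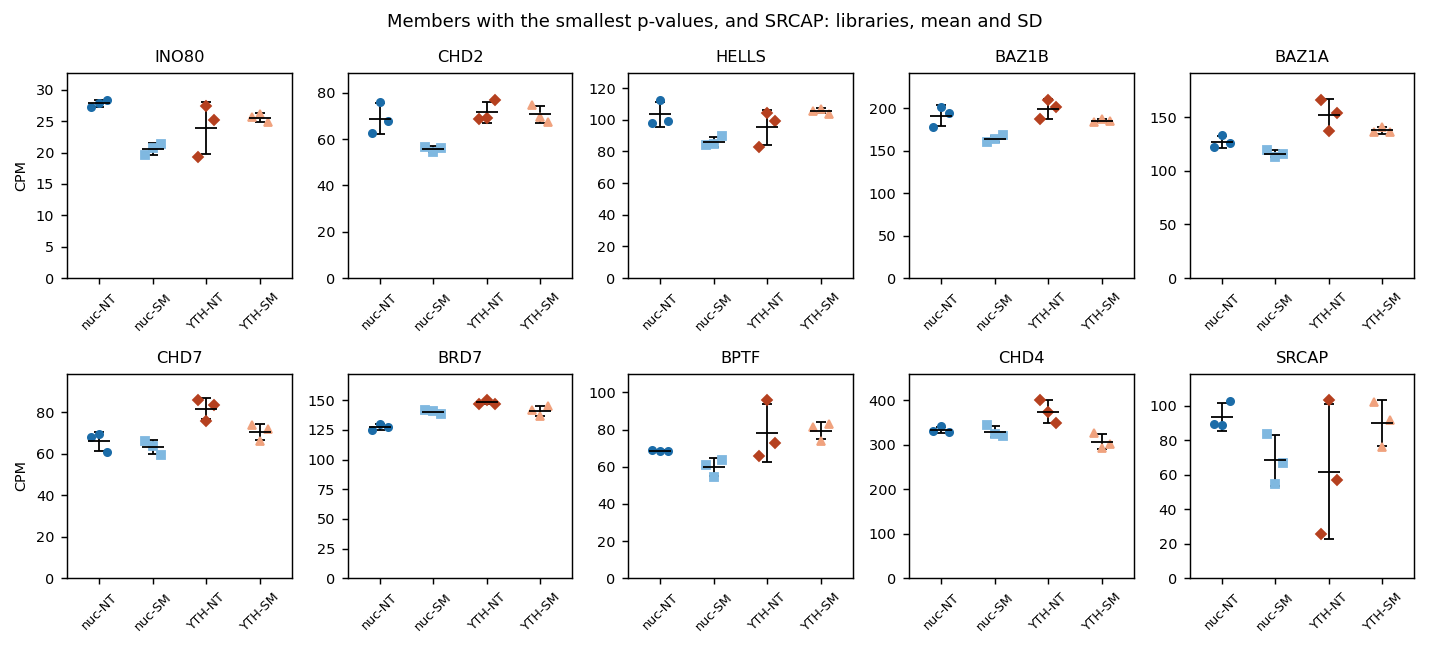
CPM (y axis from 0) of 10 members in 12 libraries by group (nuc, nuclease; YTH, YTHDF2; NT, non-targeting guide; SM, SMARCA4 guide); points are libraries and the bar with whiskers is the mean ± SD of 3. INO80 lies lowest in nuclease-SMARCA4 and in 1 YTHDF2-NT library, and SRCAP spans 25.5 to 103.2 within YTHDF2-NT.

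The test of whether the guide's effect differed between the effectors called 0 of 50 members and 0.0% of all genes. At an unadjusted p below 0.05 there were 7 members, against 11.1% of all genes, led by HELLS and INO80. Of the members 29 lay above and 21 below 0, against 49.4% and 50.6% of all genes. For HELLS the difference of log2 fold changes, YTHDF2 minus nuclease, was 0.41 ± 0.12 and for INO80 0.53 ± 0.16 (SE), both with adjusted p = 0.371 (edgeR). HELLS was at 82.6, 104.1 and 99.0 CPM in the YTHDF2-NT libraries and at 105.8, 107.1 and 104.0 CPM in YTHDF2-SMARCA4. Its 3 nuclease-SMARCA4 values, up to 89.6 CPM, were low together with YTHDF2-NT replicate 1. Without YTHDF2-NT replicate 2 this test called 9 of 50 members, HELLS and INO80 among them, against 8.62% of all genes.

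Between the effectors under the NT guide, 0 of 50 members were called, and 0.0491% of all genes. At an unadjusted p below 0.05 there were 6 members, against 10.9% of all genes: CHD7, BRD7, BAZ1A, ATRX and CHD4, which were higher with YTHDF2, and SMARCD3, which was lower. For BRD7, at chr16:50313487-50368934, the level was 124.6, 130.03 and 127.6 CPM in the nuclease-NT libraries and 147.2, 150.1 and 147.3 CPM in YTHDF2-NT. Both groups were tight and did not overlap. The log2 fold change of BRD7 was 0.22 ± 0.06 (SE; adjusted p = 0.273, edgeR), and DESeq2 called it with an adjusted p of 0.0213, where DESeq2 called 0.827% of all genes. CHD7 was at 67.9, 69.4 and 60.7 CPM in nuclease-NT, below its 3 YTHDF2-NT values. The log2 fold change of CHD7 came to 0.31 ± 0.08 (SE), with adjusted p = 0.273 (edgeR). The groups did not overlap for 10 of 50 members, against 12.8% of all genes. Of the members 31 lay above and 19 below 0, against 51.3% and 48.7% of all genes. The fit of these 6 libraries called 0 of 50 members and 0.0388% of all genes. Without YTHDF2-NT replicate 2, 9 of 50 members were called, against 9.61% of all genes.

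Under the SMARCA4 guide, 0 of 50 members were called between the effectors, and 0.00614% of all genes. At an unadjusted p below 0.05 there were 7 members, all higher with YTHDF2, against 11.5% of all genes in either direction: CHD2, BPTF, HELLS, BAZ1A, INO80, CHD1 and BAZ1B. BPTF, the histone-reading subunit of NURF at chr17:67825524-67984378, was at 61.0, 54.4 and 63.8 CPM in nuclease-SMARCA4 and at 81.4, 74.1 and 82.8 CPM in YTHDF2-SMARCA4. Its log2 fold change was 0.41 ± 0.12 (SE; adjusted p = 0.265, edgeR). CHD2 was at 74.7, 69.7 and 67.6 CPM in YTHDF2-SMARCA4, above its 3 nuclease-SMARCA4 values, with a log2 difference of 0.34 ± 0.08 (SE) and adjusted p = 0.233 (edgeR). DESeq2 called CHD2 with an adjusted p of 0.0408, where it called 0.694% of all genes. The fit of these 6 libraries called these 7 members, of 49 tested, with adjusted p from 0.0128 to 0.0488 (edgeR), and 4.25% of all genes. The nuclease-SMARCA4 libraries enter both this comparison and that of the guides with the nuclease. In CPM, 19 of 50 members did not overlap, 14 higher and 5 lower with YTHDF2, against 26.7% of all genes. Of the 50 members 35 lay above and 15 below 0, against 50.1% and 49.8% of all genes, with a median of 0.08. Across the members the log2 fold change followed transcript length with a Spearman's rho of 0.39, and with 0.18 across all fitted genes, a description over genes that share libraries. Over all fitted genes rho was -0.19 for the nuclease guide, 0.29 for the YTHDF2 guide, 0.31 for their difference and -0.27 for the effectors under the NT guide. Across the members these were -0.11, 0.24, 0.20 and -0.02. For the average guide and the average effector the members had 0.15 and 0.23, and all fitted genes 0.07 and -0.06.

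**Figure D5:**
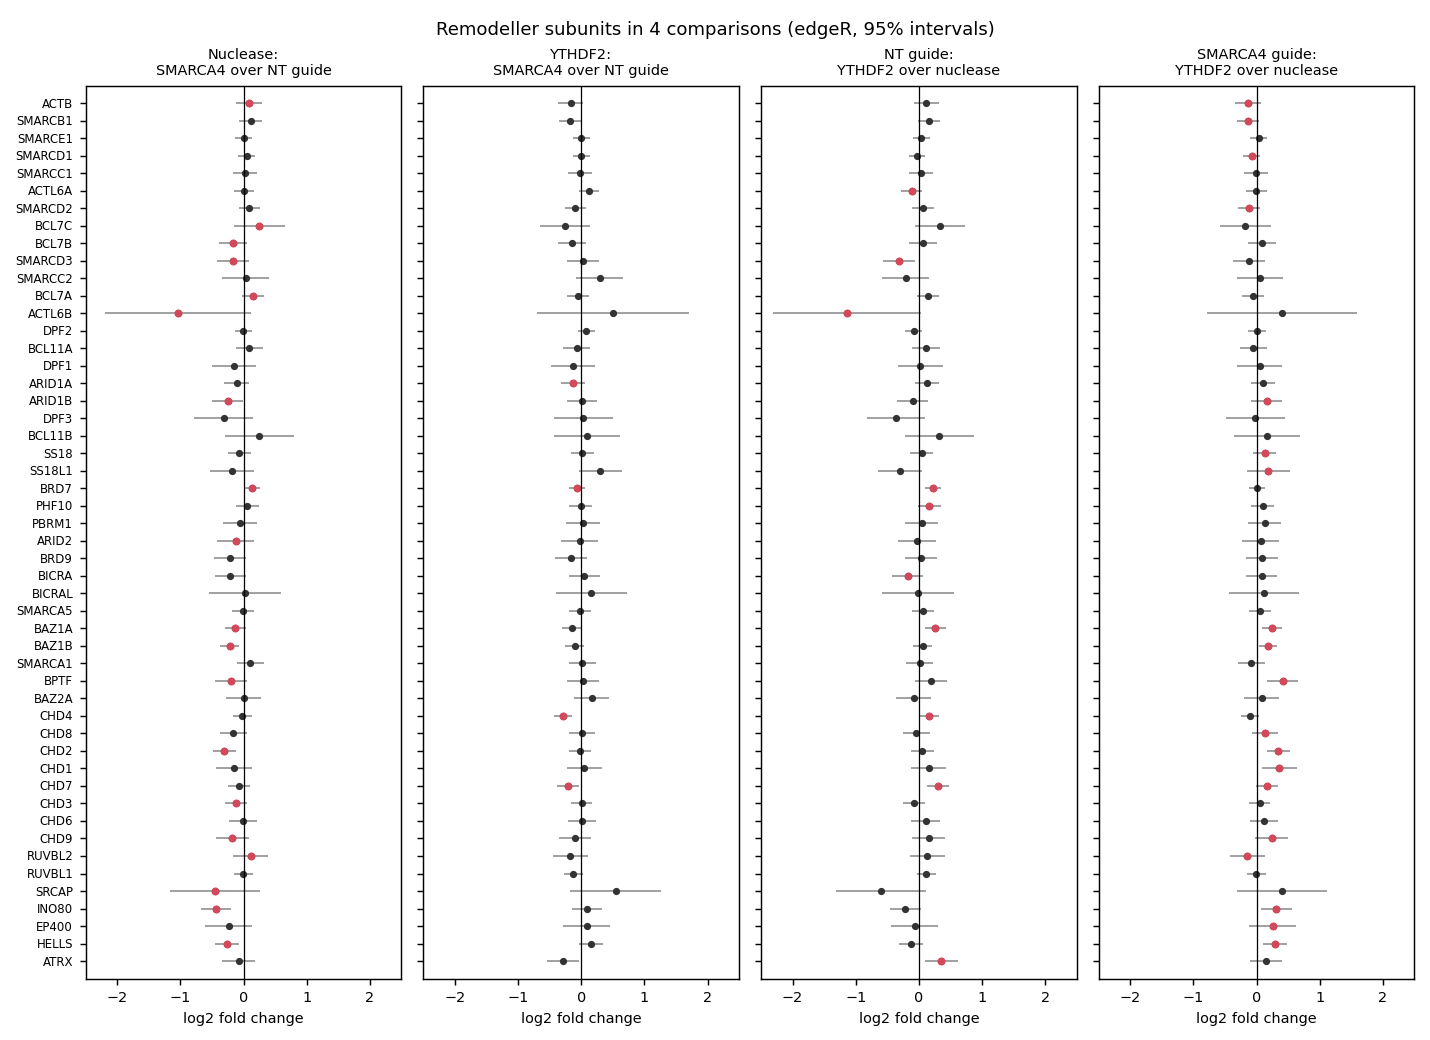
log2 fold change of each member (x axis; y axis, members grouped by complex) in 4 comparisons with 95% intervals of the edgeR fit; red points mark members whose 2 groups of 3 libraries do not overlap in CPM. Most points lie within 0.5 of 0, and the widest intervals belong to ACTL6B, SRCAP and other members with few or scattered counts.

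Averaged over the effectors, 0 of 50 members were called for the guide and 0.0% of all genes. There were 7 members with an unadjusted p below 0.05, against 7.91% of all genes, all lower with the SMARCA4 guide and led by BAZ1B and CHD4. BAZ1B was 10.7% lower, with a 95% interval from 16.9% to 4.06% lower, and adjusted p = 0.515 (edgeR). CHD4 was 10.2% lower with adjusted p = 0.522 (edgeR). This average contains the nuclease comparison, in which all 8 CHD genes were below 0; with YTHDF2 alone 4 of the 8 were. In the average 35 of 50 members lay below 0 and 15 above, against 52.7% and 47.3% of all genes. The interval excluded a change of 1.2-fold or more for 29 members.

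Averaged over the guides, 0 of 50 members were called between the effectors and 0.0307% of all genes. There were 11 members with an unadjusted p below 0.05, against 11.5% of all genes, 10 of them higher with YTHDF2 and SMARCD3 lower. BAZ1A, at chr14:34752731-34875647, had levels of 122, 133 and 126 CPM in nuclease-NT, 119.4, 113 and 116 CPM in nuclease-SMARCA4, 166, 137 and 154 CPM in the YTHDF2-NT libraries and 136, 141 and 136 CPM in the YTHDF2-SMARCA4 ones. All 6 YTHDF2 libraries were above all 6 nuclease libraries. Its log2 fold change was 0.25 ± 0.05 (SE; adjusted p = 0.137, edgeR), the smallest adjusted p of a member in any comparison. For CHD7 the log2 fold change was 0.23 ± 0.06 (SE), with adjusted p = 0.180 (edgeR). DESeq2 called BAZ1A with an adjusted p of 0.0023 and CHD7 with 0.0240, where it called 1.46% of all genes. Of the members 34 lay above and 16 below 0, against 51.8% and 48.2% of all genes. Leaving out YTHDF2-NT replicate 2 also called both with edgeR, with 1.73% of all genes, and leaving out replicate 1 called BAZ1A and BPTF, with 0.802%. In the other 4 comparisons DESeq2 called 0 of 50 members, where it called 0.892% of all genes for the nuclease guide, 0.00289% for the YTHDF2 guide, 0.45% for their difference and 0.171% for the average guide.

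Of 55 further genes of these complexes that are not members, 54 were tested and 0 were called in any comparison. INO80D, a subunit of the INO80 complex, was 10.3 ± 0.6 CPM in nuclease-NT and 6.96 ± 0.56 CPM in nuclease-SMARCA4 (SD, n = 3), with a log2 fold change of -0.57 and adjusted p = 0.204 (edgeR). YEATS4, a histone acyl-lysine reader of the SRCAP and TIP60 complexes, was 48.2 ± 5.9 and 62.7 ± 0.7 CPM in these groups (SD, n = 3), with a log2 fold change of 0.37 and adjusted p = 0.167 (edgeR). In that comparison 25 of the 54 genes lay above 0 and 29 below, with a median of -0.02.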

How the data were processed

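Members were found by the symbol in the target names of 12 tables. Each table holds the estimated counts and the TPM that the authors deposited for 200403 targets. The submitters' processing notes list kallisto, sleuth and the build hg38. Versions, annotation release and strand setting are not given in the sources used here. Estimated counts were summed per gene and rounded. TPM was summed per gene and compared as log2(TPM + 0.1). The members and lists were chosen with earlier results of these data known.

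Tests were two-sided edgeR 4.0.16 quasi-likelihood tests in R 4.3.3 (TMM, filterByExpr, 1 mean per group over 12 libraries), adjusted by Benjamini-Hochberg over 16297 genes and called below 0.05. CPM are counts scaled by TMM totals. DESeq2 1.42.0 was an alternative, among those listed in the closing section. Intervals are for 95% confidence and, like the p-values, cover the libraries' spread. The 1.2-fold limit set against them was chosen after values were seen and is a description, not a test. The code was tested on simulated data. Models were matched to GENCODE 29 by versioned name and length (562 of 624); the matched models held at least 61.0% of the members' counts, and segments use those only. Members named with their values are, in each comparison, the 2 with the smallest p, and all paralogs by TPM; other names (such as SRCAP, BAZ1B, CHD9, HELLS with the nuclease and the segments) were chosen after their values were seen. Kallisto divides reads among similar models and paralogs, ACTB pseudogenes included, so these levels are estimates. Replicate numbers were not used to pair libraries in the main fit, since the labels do not say that they mark a batch (closing section).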

Additional observations from a re-analysis of the deposited data

How the results depend on the processing

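Of the 260 alternative values of the 14 named fold changes, 241 stayed on their side of the threshold, 19 passed it and 0 changed sign. The 14 were picked from these data as the 2 members with the smallest p in each comparison. The alternatives refit the same libraries or a part of them, so a kept sign is no independent check. Counts of called members, 0 in every comparison, moved as follows; the cause was not tested. Without the count filter 1, 1, 2, 1, 2, 0 and 2 members were called, in the order nuclease guide, YTHDF2 guide, interaction, effectors under the NT guide, effectors under the SMARCA4 guide, average guide and average effector. DESeq2 called 1 under the NT guide, 1 under the SMARCA4 guide and 2 for the average effector, and 0 in the other comparisons. Fits of the 6 libraries compared called 4 for the nuclease guide and 7 for the effectors under the SMARCA4 guide. Leaving out each library gave ranges of 0 to 1, 0 to 8, 0 to 9, 0 to 9, 0 to 0, 0 to 0 and 0 to 2 in that order, the counts above 0 all without YTHDF2-NT replicate 1 or 2. RLE factors and removal of the length trend called 0 members in all 7 comparisons.

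Same-numbered libraries of different groups had deviations that correlated from -0.447 to 0.187, and differently numbered ones from -0.304 to 0.456. Whether the number marks a shared batch is not stated in the labels and was not tested. With the replicate number as a block, alone or with the length trend removed, 0 members were called in each comparison. Counts over all genes, 1, 0, 0, 8, 1, 0 and 5, were 129, 1, 53, 103, 91, 19 and 172 with DESeq2, 333, 214, 493, 360, 296, 224 and 252 without the filter, 41, 0, 3, 17, 19, 0 and 31 without the length trend, 68, 0, 18, 20, 21, 3 and 18 with the block as well, and 2, 0, 1, 4, 3, 1 and 2 with the block alone. Fits of 6 libraries called 550, 0, 6 and 660 genes in the 4 comparisons of groups. Without 1 library these counts reached 44, 1585, 1444, 1610, 70, 48 and 290.

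Pairs were counted as keeping 1 order whichever paralog led, so the order itself can differ between the counts below. BCL7B was above BCL7A in 12 of 12 libraries by TPM and in 0 of 12 by estimated counts, and entered both counts. The paralog pairs with 1 order numbered 19 by TPM, 22 by estimated counts, 21 by protein-coding models and 19 to 20 without 1 library. In that order, members with 1 main model numbered 19, 28, 24 and 19 to 21. By protein-coding models these are out of the 48 members with such TPM in every library, and out of 50 otherwise. Depth limits ACTL6B and BCL11B, with 2 to 19 and 23 to 47 estimated counts a library. Chosen after seeing the data, leaving the short model CHD8-206 out of CHD8 kept CHD8 the highest of CHD6 to CHD9 in 12 of 12 libraries; leaving CHD9-215 out of CHD9 kept the nuclease groups apart and made the YTHDF2 groups overlap.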

Other observations

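Of the 50 members, 40 had a promoter in the RefSeq table for GRCh38.p14, taken as 250 bases before to 50 bases after the start. These 300-base windows held a median of 26 CG dinucleotides and 66.8% G or C, against 14 and 58.7% over all 35116 promoters of the table. The median level of the members was also above that of the fitted genes, and expressed genes were not set apart in this comparison.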
